A study of Mus musculus with 8 samples.

Results

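The trophectoderm transcription factors described here are 10 genes, Cdx2, Elf5, Gata3, Gata2, Tfap2a, Tfap2c, Tead4, Hand1, Ascl2 and Cited2. They were taken by symbol from a table of 24354 mouse genes, whatever their level, and all 10 were found. The table holds RNA sequencing values for 8 libraries of undifferentiated cultures, 2 from each of 4 groups. ESC is the wild-type embryonic stem cell line E14, kept in serum and leukemia inhibitory factor (LIF) on mitotically inactivated C3H embryonic fibroblasts. EPSC is a wild-type extended pluripotent stem cell line from C57BL/6 8-cell embryos, kept on the same kind of feeder cells in LCDM, which is LIF with the small molecules CHIR99021, dimethindene maleate and minocycline hydrochloride. NSC is a neural stem cell line from mice with 1 copy each of the Oct4-GFP (OG2) and ROSA26 lacZ transgenes, grown with EGF and FGF2 on gelatin and without feeder cells. Hybrid is a near-tetraploid line made by fusing EPSC with these NSC using polyethylene glycol. It was picked for Oct4-GFP and kept in LCDM on feeder cells. Each group is a single line, so strain, culture medium and line cannot be told apart, and the p-values below measure only the spread between 2 libraries of a line. The study asked whether EPSC and hybrid cells can enter the trophoblast lineage, and the factors below are those that set up and keep that lineage in the embryo.

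The trophectoderm is the outer epithelium of the blastocyst and gives rise to the trophoblast of the placenta. In outer cells the Hippo pathway is inactive, so its coactivator YAP enters the nucleus and acts with the DNA-binding protein TEAD4 to switch on Cdx2 and Gata3. CDX2 represses the pluripotency gene Pou5f1 (Oct4), and with ELF5, EOMES and TFAP2C it keeps trophoblast stem cells dividing, while HAND1 and ASCL2 act later, in giant cells and the spongiotrophoblast. Several of these genes also work elsewhere: TFAP2C and TEAD4 are present in pluripotent cells, ASCL2 and HAND1 in other embryonic tissues, and CITED2, a coactivator of TFAP2 proteins that binds CBP and p300, in many cell types.

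Levels are given as FPKM, sequenced fragments of a gene scaled to the length of its transcript and to the size of the library, a scale that corrects for transcript length and so allows genes to be compared. Differences are on the log2(FPKM + 1) scale, which understates the change of low genes. They were tested with limma over the 13239 genes with a mean of at least 1 FPKM in some group and called at a Benjamini-Hochberg adjusted p under 0.05. Since 2 libraries stand against 2, the smallest two-sided p of an exact permutation test is 0.333, and calls rest on the spread pooled across groups and genes. Spaced low values put the 8 libraries at an estimated 21900000 to 32500000 fragments on the scale of the deposited values, at which 3 fragments on a 2 kb transcript amount to 0.0462 to 0.0684 FPKM. All 8 pluripotent cell markers were called higher in ESC, EPSC and Hybrid than in NSC, and all 11 neural stem cell markers were called lower in each. No library went against its label.

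The 10 factors fell into 2 tiers. Tfap2c, Cited2 and Tead4 exceeded a group mean of 3 FPKM in at least 1 group, with highest group means of 37.7, 68.6 and 13.4 FPKM. The other 7 factors, which include Cdx2, Elf5 and Gata3, stayed below 2 FPKM in every library. Of the 10, 6 entered the test, and Cdx2, Elf5, Tfap2a and Hand1 did not reach the filter in any group. Gata3 entered through EPSC and Hybrid alone and Ascl2 through ESC and EPSC alone, so their presence among the tested genes already favours those groups. Between the pluripotent lines, Tead4 was highest in EPSC and Cited2 was highest in ESC by several-fold, and these were the clearest differences.

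**Figure D1:**
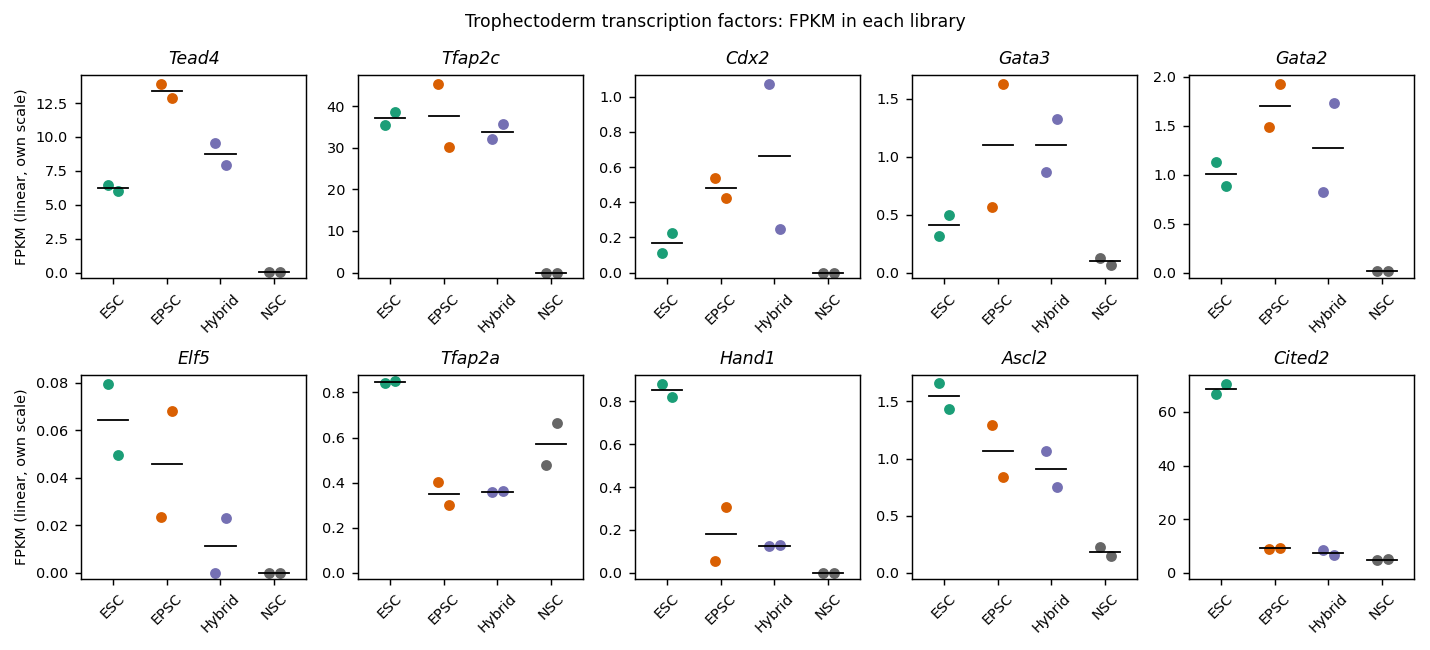
Level of each factor in each library, in FPKM on a linear axis that differs between panels, with points for the 2 libraries of a group and a line for their mean. Tead4 peaks in EPSC, Cited2 in ESC, Tfap2c is alike in the 3 pluripotent lines and listed at 0 in NSC, and the 7 remaining factors stay under 2 FPKM.

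Against ESC, the test called 2 of the 6 factors in EPSC, Tead4 as higher and Cited2 as lower, when 61% of all tested genes were called, 33.7% higher and 27.3% lower. In Hybrid against ESC it called 3, Tead4 as higher and Cited2 and Ascl2 as lower, against a background of 65.5%, with 35.3% higher and 30.2% lower. In Hybrid against EPSC it called Tead4 alone, as lower, where 44.4% of genes were called, 22.5% higher and 21.9% lower. The factors were thus called no more often than other genes in these 3 comparisons. Against NSC, 6 of 6 were called higher in Hybrid and in EPSC and 5 of 6 in ESC. The background was 86.5% in Hybrid (44.5% higher, 42% lower), 86.2% in EPSC (45.2% higher, 41% lower) and 84.7% in ESC (42.8% higher, 41.9% lower). All tested factors but Cited2 entered the test through pluripotent groups alone, so they had to differ from NSC and these counts carry no weight. A fold criterion with no p-value was also applied after the study's methods, read here as means that differ by over 3-fold with the larger one over 3 FPKM. Of the 10 factors, it took 1 in EPSC against ESC (background 3.26%) and 1 in Hybrid against ESC (4.62%), Cited2 in both cases. It took 0 in Hybrid against EPSC (1.1%), Tead4 and Tfap2c in Hybrid against NSC (20.1%) and in EPSC against NSC (19.9%), and these plus Cited2 in ESC against NSC (19.1%). The study's results text gives lower thresholds, of 2 for both, and with these Tead4 joined Cited2 in EPSC against ESC while the other counts stayed as they were. The shares above belong to thresholds of 3, and none is given here for 2. With thresholds of 3 the criterion took 625 genes in EPSC against ESC, 211 in Hybrid against EPSC and 3844 in Hybrid against NSC. The counts printed by the study for these comparisons are close to those.

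TEAD4, the DNA-binding partner of YAP at the top of the pathway, is encoded at chr6:128227143-128300813 (mm10). Its gene measured 6.48 and 5.98 FPKM in the ESC libraries, 13.9 and 12.9 in EPSC, 9.52 and 7.95 in Hybrid, and 0.0609 and 0.0505 in NSC. The 4 groups did not overlap, and the order was EPSC, Hybrid, ESC, NSC. The EPSC mean of 13.4 ± 0.742 FPKM (SD, n = 2) was 2.15 times the ESC mean of 6.23 ± 0.353, a difference of 0.99 (SE 0.10) with a limma adjusted p of 0.000156. Hybrid, at 8.74 ± 1.11 FPKM (SD, n = 2), lay between these lines. It was lower than EPSC by a log2 difference of -0.57 (SE 0.10, limma adjusted p = 0.00396) and higher than ESC by 0.43 (SE 0.10, limma adjusted p = 0.00719). The call against ESC was lost without ESC replicate 2 (limma adjusted p = 0.0568, over all alternatives 0.00265 to 0.0568). Tead4 was 112-fold to 240-fold higher in the pluripotent lines than in NSC by group means, with limma adjusted p from 2.6e-08 to 1.19e-07. The NSC values lie close to 3 fragments on a 2 kb transcript, so the size of these ratios is uncertain.

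TFAP2C, or AP-2 gamma, acts beside CDX2 in trophoblast stem cells and is encoded at chr2:172545678-172558622. Its gene stood at 35.6 and 38.5 FPKM in ESC, 45.3 and 30.1 in EPSC, and 32.0 and 35.8 in Hybrid, and was listed at 0 in both NSC libraries. The pluripotent libraries overlapped, and all 3 lines were called higher than NSC (limma adjusted p from 6.71e-08 to 7.58e-08). The difference between EPSC and ESC was 0.00 with a 95% interval from -0.40 to 0.39 (limma adjusted p = 0.994), and that between Hybrid and EPSC was -0.12, from -0.52 to 0.27 (limma adjusted p = 0.591). The EPSC libraries themselves differed by more than the group means did. Without EPSC replicate 1 the gene was called lower in EPSC than in ESC (-0.29, limma adjusted p = 0.0454), and without EPSC replicate 2 it was called higher (0.29, limma adjusted p = 0.0452, over all alternatives 0.0452 to 1.00). Against Hybrid, EPSC was called higher without EPSC replicate 2 (Hybrid minus EPSC -0.41, limma adjusted p = 0.0199, over all alternatives 0.0199 to 0.896). No steady difference between pluripotent lines was therefore detectable in Tfap2c with 2 libraries each.

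**Figure D2:**
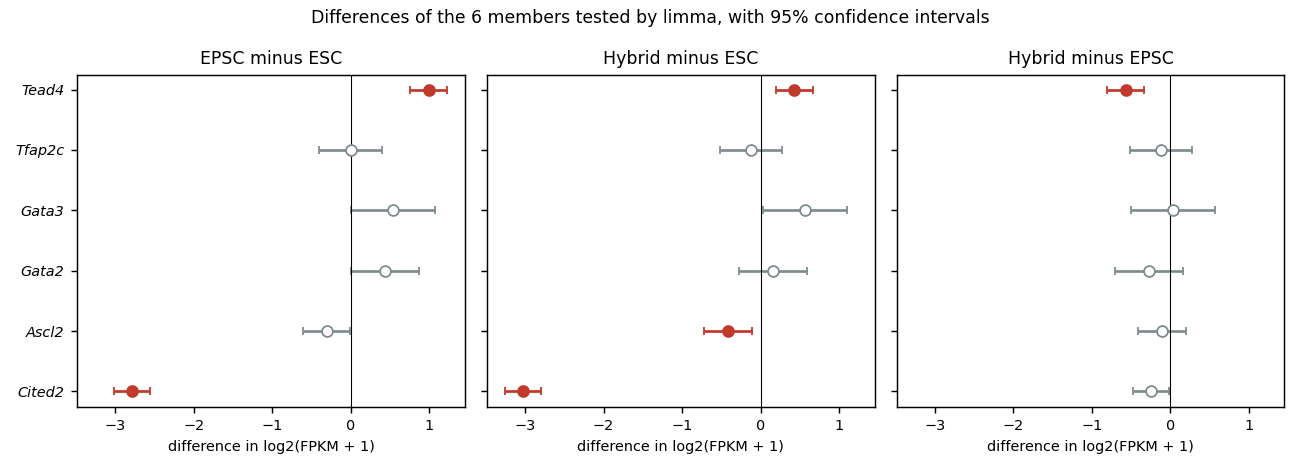
Differences in log2(FPKM + 1) between pluripotent lines for the 6 factors that entered the test, with 95% confidence intervals from limma. Filled red points were called at an adjusted p under 0.05. Tead4 differs in all 3 panels, and Cited2 lies near -3 in both comparisons with ESC.

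CDX2, the homeodomain protein that defines the trophectoderm, is encoded at chr5:147300900-147307249. Cdx2 stood at 0.110 and 0.223 FPKM in ESC, 0.536 and 0.426 in EPSC, 1.07 and 0.249 in Hybrid, and 0 in both NSC libraries. These values amount to an estimated 7 and 13 fragments in ESC, 23 and 19 in EPSC, 50 and 11 in Hybrid, and 0 and 0 in NSC. Each EPSC library lay above each ESC library, at 2.89 times the ESC mean, but the Hybrid libraries differed from one another by more than counting error, with 95% Poisson intervals of 37.1 to 65.9 and 5.49 to 19.7 fragments. With the filter on low values removed, the difference of 0.35 between EPSC and ESC had a limma adjusted p of 0.26, and that of 0.47 between Hybrid and ESC one of 0.131. The Hybrid mean of 0.661 ± 0.582 FPKM (SD, n = 2) therefore rests on replicate 1. When Hybrid replicate 2 was left out, Hybrid replicate 1 alone took Cdx2 past the filter, and the differences from ESC were 0.35 in EPSC and 0.83 in Hybrid. That fit assumes that the lone Hybrid library varies like the other groups. Cdx2 also entered it through its high library, so its calls carry no weight. Intervals on fragments cover counting error only, since reads without molecular identifiers are not independent molecules.

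ELF5, an ETS-family protein expressed in trophoblast and kept silent by DNA methylation in embryonic cells, is encoded at chr2:103412098-103450989. Elf5 measured 0.0794 and 0.0496 FPKM in ESC, 0.0236 and 0.0680 in EPSC, 0 and 0.0229 in Hybrid, and 0 and 0 in NSC. That is an estimated 5 and 3 fragments in ESC, 1 and 3 in EPSC, and 0 and 1 in Hybrid, so no library held more than 5. A count of 0 allows up to 3.69 fragments by the same Poisson interval. No order of the pluripotent lines can be read for Elf5 at this depth.

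GATA3, a zinc finger protein that acts beside CDX2 below TEAD4, is encoded at chr2:9857078-9887953. Gata3 stood at 0.316 and 0.5 FPKM in ESC, 0.570 and 1.63 in EPSC, 0.869 and 1.33 in Hybrid, and 0.128 and 0.0690 in NSC. All EPSC and Hybrid libraries lay above the ESC libraries, and the means were 2.7 and 2.69 times that of ESC. The differences from ESC were 0.53 for EPSC (SE 0.23, limma adjusted p = 0.077) and 0.57 for Hybrid (SE 0.23, limma adjusted p = 0.0589), so neither was called. With a replicate block both were called (limma adjusted p = 0.0337 for EPSC and 0.0243 for Hybrid). An estimated 38 and 113 fragments lay behind the EPSC values, a gap between libraries of one line wider than their Poisson intervals (26.9 to 52.2 and 93.1 to 136). The EPSC difference was called without EPSC replicate 1 (0.90, limma adjusted p = 0.00342) and fell to 0.16 without EPSC replicate 2 (limma adjusted p = 0.404), the lowest and highest p over all alternatives. The Hybrid difference was called without either EPSC library, which changes only the pooled spread (limma adjusted p = 0.00671 and 0.00674), in a fit of Hybrid and ESC alone (0.0215) and with a pseudocount of 0.1 (0.0409), in a range over all alternatives of 0.00671 to 0.232. Against NSC, Gata3 was called higher in EPSC (0.89, limma adjusted p = 0.00689) and Hybrid (0.93, limma adjusted p = 0.00564). It was not called in ESC (0.36, limma adjusted p = 0.177). Alternatives that called it there were leaving out either EPSC library (limma adjusted p = 0.0321 in each case), a fit of ESC and NSC alone (0.00759) and a pseudocount of 0.1 (0.0219), in a range over all alternatives of 0.00759 to 0.818.

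GATA2, which works with GATA3 in trophoblast and also in blood progenitors, is encoded at chr6:88193891-88207032. Gata2 stood at 1.13 and 0.881 FPKM in ESC, 1.48 and 1.93 in EPSC, 0.820 and 1.73 in Hybrid, and 0.0115 and 0.0114 in NSC. EPSC lay above ESC in each library while the Hybrid libraries ranged from below ESC to within the EPSC values. The difference between EPSC and ESC was 0.43 (SE 0.18, limma adjusted p = 0.0768). It was called when either Hybrid library was left out of the shared fit (limma adjusted p = 0.0107 without replicate 1 and 0.00998 without replicate 2) and in a fit of EPSC and ESC alone (0.0341), in a range over all alternatives of 0.00998 to 0.283. Hybrid and ESC differed by 0.16 (limma adjusted p = 0.484), with a call as higher in Hybrid without Hybrid replicate 1 (0.45, limma adjusted p = 0.0211, over all alternatives 0.0211 to 0.839). Hybrid and EPSC differed by -0.27 (limma adjusted p = 0.262), with a call as lower in Hybrid without Hybrid replicate 2 (-0.57, limma adjusted p = 0.0137, over all alternatives 0.0137 to 0.928). Against NSC, Gata2 was called higher in all 3 pluripotent lines, with differences of 0.98 to 1.42.

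The promoters of the low trophectoderm genes are shown because TEAD4 and TFAP2C, whose genes were expressed in the same cultures, are known regulators of this lineage. RefSeq windows of GRCm38.p6 (mm10), from 250 bases before to 50 after an annotated start, were available for 7 of the 10 factors, not for Tfap2c, Tead4 or Hand1. Both strands were searched for the TFAP2 motif GCCNNNGGC, which reads the same on both strands, the TEAD motif CATTCC and the GATA motif AGATAA. Matches are in capitals below, and none overlapped another. The windows of Cdx2 (chr5:147307200-147307499, minus strand), Elf5 (chr2:103411848-103412147, plus strand), Gata3 (chr2:9878551-9878850, minus strand, around a start inside the gene) and Cited2 (chr10:17722978-17723277, plus strand, the factor that differed most between pluripotent lines) read 5′ to 3′:
Cdx2: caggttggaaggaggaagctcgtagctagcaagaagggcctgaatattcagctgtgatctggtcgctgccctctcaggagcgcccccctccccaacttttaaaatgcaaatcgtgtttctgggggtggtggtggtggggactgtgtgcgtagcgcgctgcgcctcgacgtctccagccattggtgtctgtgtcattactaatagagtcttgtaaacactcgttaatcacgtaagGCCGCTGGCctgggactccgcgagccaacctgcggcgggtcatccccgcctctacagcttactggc
Elf5: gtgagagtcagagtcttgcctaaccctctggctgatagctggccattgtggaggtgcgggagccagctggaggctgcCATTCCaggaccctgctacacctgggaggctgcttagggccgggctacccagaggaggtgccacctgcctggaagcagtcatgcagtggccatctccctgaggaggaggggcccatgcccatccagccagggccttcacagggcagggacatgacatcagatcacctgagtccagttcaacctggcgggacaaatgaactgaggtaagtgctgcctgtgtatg
Gata3: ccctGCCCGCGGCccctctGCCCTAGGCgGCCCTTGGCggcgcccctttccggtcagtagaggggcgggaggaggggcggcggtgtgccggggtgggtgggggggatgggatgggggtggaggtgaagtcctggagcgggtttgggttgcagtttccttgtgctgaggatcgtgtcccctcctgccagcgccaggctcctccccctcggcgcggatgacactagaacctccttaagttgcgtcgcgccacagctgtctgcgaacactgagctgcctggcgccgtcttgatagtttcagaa
Cited2: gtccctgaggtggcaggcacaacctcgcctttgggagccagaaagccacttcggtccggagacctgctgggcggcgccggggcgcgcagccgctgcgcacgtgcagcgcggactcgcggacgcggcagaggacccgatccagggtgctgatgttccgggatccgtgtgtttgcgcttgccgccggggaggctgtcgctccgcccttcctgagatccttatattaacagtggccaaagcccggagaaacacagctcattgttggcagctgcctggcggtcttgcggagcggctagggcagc

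Cdx2 held 1 TFAP2 match, which begins 16 bases before the start, Gata3 held 3, and the Elf5 window shown held 1 TEAD match, while a second Elf5 window held none. A second Gata2 window held 1 TFAP2 and 1 TEAD match. The windows of Ascl2, Cited2 and Tfap2a held none of the 3 motifs, and no factor's window held the GATA motif. Over all 32851 windows, 16.6% held the TFAP2 motif, 14.7% the TEAD motif and 11.2% the GATA motif. These shares were not matched for the percentage of G and C bases. That percentage had a median of 52.7% over all windows and ranged from 46.3% in a Tfap2a window to 73.7% in a Gata2 window. It was 57.3% for Cdx2 and 67.3% for Gata3. A match describes letters only. The levels of Cdx2 and Elf5 stayed near 1 FPKM or below in lines with Tfap2c over 30 FPKM and Tead4 over 5 FPKM. These are RNA levels, and any action of TFAP2C or TEAD4 on these genes was not tested.

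TFAP2A, or AP-2 alpha, overlaps with TFAP2C in binding the same motif and is known from trophoblast, epidermis and neural crest. It is encoded at chr13:40713802-40738238. Tfap2a stood at 0.840 and 0.850 FPKM in ESC, 0.402 and 0.301 in EPSC, 0.356 and 0.363 in Hybrid, and 0.478 and 0.666 in NSC. The ESC libraries lay above all others, and it was the only factor of the 10 that was higher in each NSC library than in each EPSC and Hybrid library. With the filter on low values removed, it was called lower than ESC in EPSC (-0.45, limma adjusted p = 0.00284) and in Hybrid (-0.44, limma adjusted p = 0.00253). An estimated 21 to 84 fragments lay behind each value.

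HAND1, a basic helix-loop-helix protein of giant cells, mesoderm and heart, is encoded at chr11:57828713-57832147. Hand1 stood at 0.880 and 0.822 FPKM in ESC, 0.0535 and 0.308 in EPSC, 0.123 and 0.130 in Hybrid, and 0 in both NSC libraries. The ESC values rest on an estimated 49 and 42 fragments, the EPSC values on 2 and 12 and the Hybrid values on 5 and 5, and ESC lay above every other library. Without the filter, Hand1 was called lower than ESC in EPSC (-0.66, limma adjusted p = 0.00244) and in Hybrid (-0.72, limma adjusted p = 0.00141).

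ASCL2, a basic helix-loop-helix protein needed for the spongiotrophoblast and encoded by an imprinted gene at chr7:142966822-142969264, followed the same order. Ascl2 stood at 1.66 and 1.43 FPKM in ESC, 1.29 and 0.836 in EPSC, 1.07 and 0.750 in Hybrid, and 0.223 and 0.148 in NSC. ESC lay above the other groups, and EPSC and Hybrid overlapped. The difference from ESC was -0.42 in Hybrid (SE 0.13, limma adjusted p = 0.0229) and -0.31 in EPSC (SE 0.13, limma adjusted p = 0.0709). Ascl2 entered the test through ESC and EPSC alone, with a Hybrid mean of 0.909 FPKM, so its selection already favours ESC over Hybrid. With a replicate block the EPSC difference was called too (limma adjusted p = 0.0173). The Hybrid call was lost without ESC replicate 1 (limma adjusted p = 0.123), ESC replicate 2 (0.0511) or Hybrid replicate 2 (0.112), in a range over all alternatives of 0.00434 to 0.123. The EPSC difference was called without EPSC replicate 1 (-0.47, limma adjusted p = 0.021) and with sum scaling (-0.42, limma adjusted p = 0.0466), and was -0.15 without EPSC replicate 2 (limma adjusted p = 0.352, over all alternatives 0.0173 to 0.352). Of the factors that were highest in ESC, Elf5 aside, Tfap2a, Hand1 and Ascl2 were low-level genes and Cited2 was not.

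CITED2, the coactivator that links TFAP2 proteins to CBP and p300, is encoded at chr10:17723228-17725674. Cited2 stood at 66.6 and 70.5 FPKM in ESC, 9.06 and 9.15 in EPSC, 8.36 and 6.72 in Hybrid, and 4.71 and 5.07 in NSC. The 4 groups did not overlap. The ESC mean of 68.6 ± 2.77 FPKM (SD, n = 2) was 7.53 times that of EPSC, 9.09 times that of Hybrid and 14 times that of NSC. The differences from ESC were -2.78 in EPSC (SE 0.10, limma adjusted p = 2.29e-06) and -3.03 in Hybrid (SE 0.10, limma adjusted p = 1.25e-06), and both were called under every alternative tried. Hybrid was below EPSC by -0.25 (SE 0.10, limma adjusted p = 0.0762), a difference that was called without Hybrid replicate 1 (-0.39, limma adjusted p = 0.00996, over all alternatives 0.00996 to 0.29). Hybrid was called higher than NSC as deposited (0.53, limma adjusted p = 0.00127), but with each library scaled to the same sum the difference was -0.0039 (limma adjusted p = 0.976), because that scaling moves the median of all genes in this comparison from 0.06 to -0.51. Relative to that median, the difference was 0.47 as deposited and 0.50 after scaling.

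Hybrid cells joined an EPSC parent to an NSC parent in which Cited2 alone of the factors exceeded 1 FPKM, and for Tead4 and Tfap2c the Hybrid levels lay nearer to EPSC than to NSC. Tead4 in Hybrid was 1.30 times the mean of the parental levels, and Tfap2c 1.80 times. On a log2(FPKM + 1) line from the NSC mean at 0 to the EPSC mean at 1, Hybrid stood at 0.850 for Tead4 and 0.977 for Tfap2c. In FPKM, the Hybrid mean was 0.653 times the EPSC mean for Tead4 and 0.899 times for Tfap2c. These were the factors whose parents differed under the study's fold criterion. Of the 6 tested factors, Tead4 was the only one that was called different between Hybrid and EPSC, and for the other 5 the 95% intervals of the difference spanned -0.71 to 0.57. The Hybrid cells also held the NSC genome, and in bulk RNA fewer expressing cells and less RNA per cell cannot be told apart.

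Paralogs gave a wider view of each family. Cdx1, a caudal-type gene of the primitive streak and the posterior embryo, was the caudal gene with the highest level: 2.72 ± 0.0202 FPKM in ESC, 13.2 ± 3.07 in EPSC, 11.8 ± 1.36 in Hybrid (SD, n = 2) and listed at 0 in NSC. It was called higher than ESC in EPSC (1.92, SE 0.15, limma adjusted p = 4.89e-05) and in Hybrid (1.78, SE 0.15, limma adjusted p = 4.76e-05), and Cdx2 made up 3.47% and 6.96% of the summed caudal signal in the ESC libraries, 4.62% and 2.68% in EPSC, and 8.87% and 1.91% in Hybrid. Cdx1 lay above Cdx2 in every ESC, EPSC and Hybrid library.

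Elf3, an epithelial ETS gene, stood at 24.1 ± 0.882 FPKM in ESC, 17.6 ± 2.81 in EPSC and 12.1 ± 2.51 in Hybrid (SD, n = 2), and was called lower than ESC in EPSC (-0.44, limma adjusted p = 0.0347) and in Hybrid (-0.95, limma adjusted p = 0.000976). Elf5 was at most 0.346% of the summed FPKM of Elf3, Elf5 and Ehf in any library. Within the Tfap2 family, Tfap2c made up 97.3% of the summed FPKM in ESC, 98.8% in EPSC and 98.7% in Hybrid, whereas Tfap2a was the whole of the small NSC signal.

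Among the TEAD genes, Tead2 was the most abundant in every group, at 47.3 ± 0.929 FPKM in ESC, 73.8 ± 4.21 in EPSC, 56.5 ± 6.36 in Hybrid and 55.0 ± 2.55 in NSC (SD, n = 2). Tead1 followed at 24.5 to 36.2 FPKM. Tead4 made up 7.25% of the summed TEAD signal in ESC, 11% in EPSC, 9.61% in Hybrid and 0.0579% in NSC, and it was the TEAD gene with the lowest level in NSC. Tead2 was also called higher in EPSC than in ESC (0.63, SE 0.08, limma adjusted p = 0.00056), while Tead3 was called lower (-0.56, SE 0.14, limma adjusted p = 0.0095) and was highest in NSC at 5.43 ± 0.404 FPKM.

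Cited1 ran the other way from Cited2, at 11.4 ± 0.426 FPKM in NSC against 2.35 ± 0.246 in ESC, 2.08 ± 0.615 in EPSC and 4.08 ± 0.588 in Hybrid (SD, n = 2), and was called higher in Hybrid than in EPSC (0.73, SE 0.15, limma adjusted p = 0.00711). Cited2 was 93.4% of the summed Cited signal in ESC, 74.3% in EPSC, 61.4% in Hybrid and 29.4% in NSC.

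**Figure D3:**
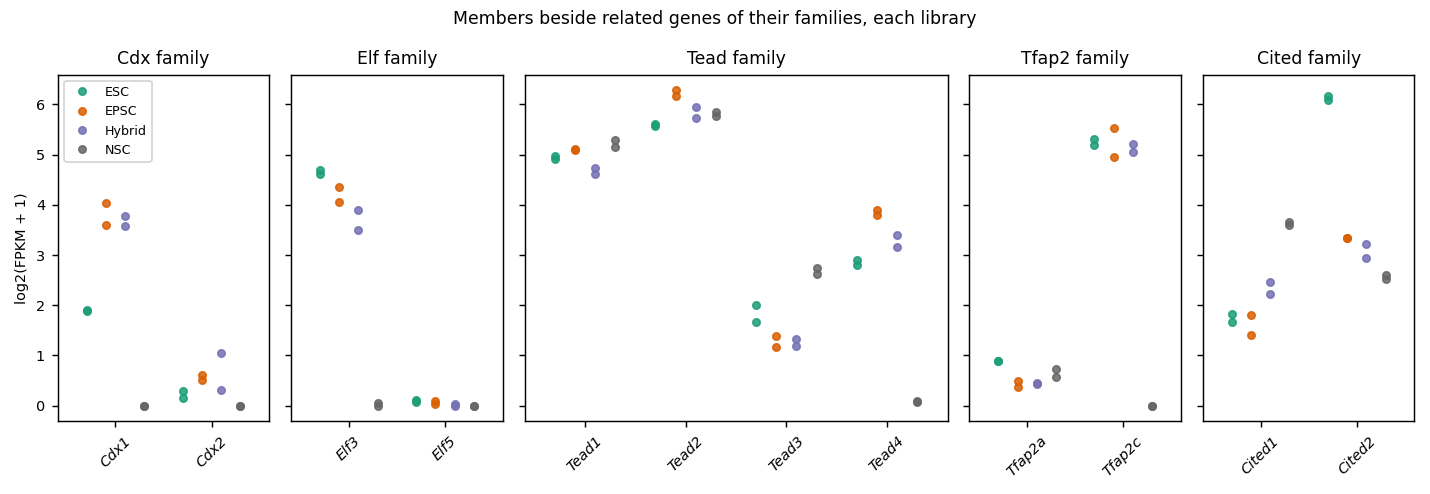
Factors of 5 families beside paralogs that exceeded 3 FPKM in some group, in log2(FPKM + 1), with 1 point for each library and colours for the 4 groups. In pluripotent cells Cdx1 lies above Cdx2, Elf3 above Elf5, and Tead1 and Tead2 above Tead4.

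Inputs to Cdx2 were read from 15 genes of the Hippo and Notch pathways, all of which were tested. In EPSC against ESC 8 were called higher, 2 lower and 5 not, with a median difference of 0.28 where the median of all tested genes was 0.04. That is 10 of 15 called, where 61% of all tested genes were called, 33.7% higher and 27.3% lower. Rbpj, the DNA-binding effector of Notch, stood at 77.1 ± 1.1 FPKM in ESC and 94.0 ± 3.20 in EPSC and was called higher (0.28, limma adjusted p = 0.011), while Hybrid stood at 70.4 ± 5.42. Nf2, an upstream activator of Hippo kinases, fell from 69.6 ± 0.326 to 39.3 ± 0.862 FPKM (-0.81, SE 0.05, limma adjusted p = 1.61e-05) and was as low in Hybrid (36.2 ± 0.533, all SD, n = 2). Yap1, at 45.2 ± 0.133 FPKM in ESC, 50.5 ± 3.75 in EPSC and 58.3 ± 5.64 in Hybrid (SD, n = 2), was called higher than ESC in Hybrid alone of these lines (0.36, limma adjusted p = 0.00667). Amotl2, which holds YAP out of the nucleus and is also a YAP target, was called lower in Hybrid than in EPSC (-0.74, SE 0.17, limma adjusted p = 0.0104), as were 5 other genes of the list, with 0 higher. Over all tested genes 21.9% were called lower and 22.5% higher in this comparison. YAP is controlled by phosphorylation, which RNA levels do not show.

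The regulators and markers of trophoblast stem cells included 16 further genes, 13 of them tested. In EPSC against ESC 3 were called higher, 8 lower and 2 not, with a median of -0.44. Over all tested genes 61% were called there, 33.7% higher and 27.3% lower. In Hybrid against EPSC 5 were higher, 3 lower and 5 not, with a median of 0.26. The share over all tested genes was 44.4% there, 22.5% higher and 21.9% lower. Of the 13, 1 entered the test through EPSC alone and was among those called higher there. The 4 most abundant were Sox2, Esrrb, Nr0b1 and Bmp4, each of which pluripotent cells use as well. Esrrb stood at 150 ± 2.91 FPKM in ESC, 204 ± 18.9 in EPSC and 202 ± 15.4 in Hybrid (SD, n = 2). Bmp4 was lower in EPSC (18.5 ± 3.15 FPKM) than in ESC (75.8 ± 0.428), a difference of -1.99 (SE 0.14, limma adjusted p = 3.36e-05), and Hybrid lay between at 39.8 ± 7 (SD, n = 2). Eomes, the T-box partner of CDX2, is named here after its values were seen: 2.86 ± 0.441 FPKM in ESC, 3.93 ± 0.556 in EPSC and 3.06 ± 0.923 in Hybrid (SD, n = 2).

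The epithelial products of the trophectoderm, 15 genes for keratins, tight junctions, desmosomes, transport and endocytosis, were all tested. In EPSC against ESC 6 were called higher, 3 lower and 6 not (median 0.11, with 33.7% called higher and 27.3% lower over all genes). In Hybrid against EPSC 1 was called higher, 9 lower and 5 not (median -0.83, against 0.00 over all genes, of which 21.9% were called lower), and in Hybrid against ESC 4 were higher and 9 lower (median -0.54), with 35.3% and 30.2% over all genes. Cldn4, a tight junction claudin, stood at 89.5 ± 0.368 FPKM in ESC, 101 ± 9.78 in EPSC and 23.0 ± 3.68 in Hybrid (SD, n = 2), and the fall from EPSC to Hybrid was -2.10 (SE 0.11, limma adjusted p = 8.04e-05). Atp1b1, a subunit of the sodium pump that fills the blastocoel, was called higher than ESC in EPSC (0.52, limma adjusted p = 0.0347) and in Hybrid (0.63, limma adjusted p = 0.0143). Aqp3, a water channel, had overlapping libraries in the 3 pluripotent lines.

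The 4 keratins of the list are given as a description, chosen after their values were seen. Krt7 stood at 0.493 ± 0.0458 FPKM in ESC, 5.81 ± 1.29 in EPSC and 1.69 ± 0.807 in Hybrid, and it entered the test through EPSC and Hybrid alone. Krt8 stood at 10.9 ± 0.587, 20.4 ± 2.14 and 5.49 ± 0.0789 FPKM in the same order, and Krt18 at 10.1 ± 0.698, 13.3 ± 0.711 and 5.97 ± 1.03. Krt19 had its highest level in ESC, at 7.15 ± 0.314 FPKM against 3.82 ± 0.652 in EPSC and 1.08 ± 0.195 in Hybrid (all SD, n = 2). The keratins thus did not share an order between ESC and EPSC, and each was lower in Hybrid than in EPSC by its mean. Of 12 genes of the differentiated placenta, 4 were tested. In EPSC against ESC 1 was called higher and 0 lower, with 33.7% and 27.3% over all genes. In Hybrid against EPSC 1 was called higher and 2 lower, with 22.5% and 21.9% over all genes. A single placental gene gave both higher calls and had entered the test through Hybrid alone. Peg10 was lower in Hybrid at 10.2 ± 4.52 FPKM than in EPSC at 53.7 ± 11.1 (SD, n = 2), a difference of -2.33 (SE 0.26, limma adjusted p = 0.000672). Phlda2 likewise stood at 30.0 ± 3.98 against 72.2 ± 13.3 (-1.23, limma adjusted p = 0.000635). Peg10 and Phlda2 are imprinted genes with roles in placental growth.

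**Figure D4:**
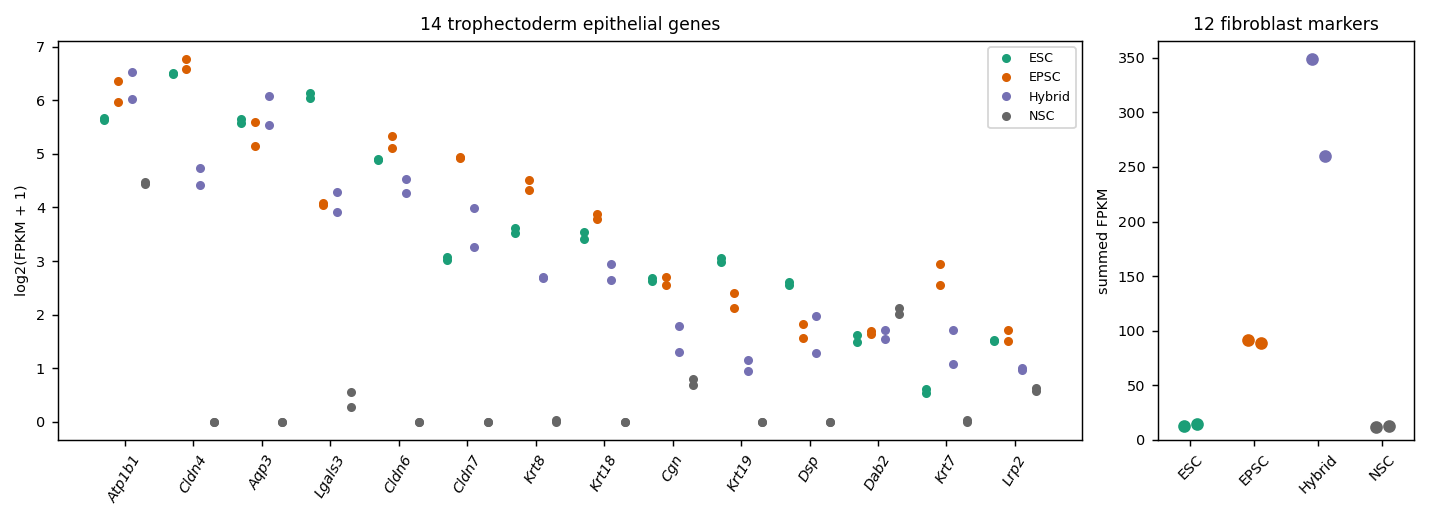
Left, log2(FPKM + 1) of 14 of the 15 trophectoderm epithelial genes in each library. Right, summed FPKM of 12 fibroblast markers, in which Hybrid libraries reach 348.7 and 259.8, EPSC 91.6 and 88.3, ESC 13.0 and 14.4 and NSC 11.4 and 13.0.

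Feeder fibroblasts were part of the ESC, EPSC and Hybrid cultures, and fibroblast markers differed between these lines. The markers are not particular to feeder cells. They include a gene that the study used as an EPSC marker. The study also reported collagen fibril organization among the processes raised in EPSC and hybrid cells against ESC. NSC, grown without feeder cells, had a sum near that of ESC, so the sums below are not a measure of feeder cells alone. Of 12 fibroblast markers, 11 were called higher in EPSC than in ESC (median 2.03) and 12 in Hybrid than in ESC (median 3.58) and in Hybrid than in EPSC (median 1.49), when 33.7%, 35.3% and 22.5% of all tested genes were called higher. Of the 12, 7 entered the test through EPSC or Hybrid alone and so had to differ. Their summed FPKM ranged from 13.0 to 14.4 in ESC, from 88.3 to 91.6 in EPSC, from 259.8 to 348.7 in Hybrid and from 11.4 to 13.0 in NSC, and 1 of the 12 was at 0 in ESC replicate 1, 6 in NSC replicate 1 and 3 in NSC replicate 2. Col1a2, a fibroblast collagen, stood at 2.2 ± 0.197 FPKM in ESC, 18.0 ± 0.0412 in EPSC and 57.7 ± 13.1 in Hybrid (SD, n = 2). These markers moved with the differences of Tead4, Cited2, Ascl2, Hand1 and Tfap2a from ESC, and with those of the paralogs and other lists from ESC. They also moved with those of Tead4, the paralogs and the Hippo, placental, epithelial and trophoblast stem cell genes between Hybrid and EPSC. Their part in any of these results was not tested. Of 9 primitive endoderm markers, 5 were tested, and in Hybrid against ESC 2 were called higher and 3 lower, with 35.3% and 30.2% over all genes. Of 10 markers of the primitive streak and mesoderm, where Hand1, Cdx1 and Eomes are also used and which include Eomes itself, 4 were tested, 2 of them through EPSC or Hybrid alone, and in EPSC against ESC 2 were called higher and 0 lower, with 33.7% and 27.3% over all genes.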

How the data were processed

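RNA from the 8 cultures was poly-A selected and sequenced as paired-end, stranded libraries. Per the labels and the study's methods, the authors aligned reads to mm10 with STAR 2.7.9a and computed FPKM with Cuffnorm 2.2.1 (Cufflinks 2.2.1). The deposited table holds these FPKM values for each library. The gene annotation and Cuffnorm's library normalization were not given in the sources used here. From the deposited FPKM, 19144 genes had a value above 0, and the 13239 with a group mean of at least 1 were fitted as log2(FPKM + 1) with limma 3.58.1 in R 4.3.3 (trended empirical Bayes, 4 groups in 1 fit, 6 contrasts, Benjamini-Hochberg over all genes tested). The same steps were tested on simulated data. Fragments were estimated from FPKM steps of 2247 single-transcript genes over 1500 bases, assuming 200-base fragments. For each low factor the transcript length was varied within 10% of the annotated one to the length at which values below 40 fragments lay nearest to whole numbers (all within 0.2), so these fragment numbers are estimates. Replicates were taken from the titles. All 10 factors are named. Paralogs are named where a group mean exceeded 3 FPKM, and of each other list at most the 4 genes with the highest mean, with Eomes and the keratins added after their values were seen. A paralog and an epithelial gene that meet these rules are not reported here. The factors and lists were chosen with earlier results of these data known. Alternatives were a pseudocount of 0.1, other filters, sum scaling, quantile normalization, 2 groups alone, a replicate block and leaving out each library. Python 3.11.15, numpy 2.4.6, pandas 2.3.3 and scipy 1.17.1 were used for the remaining steps, and RefSeq GRCm38.p6 for positions and promoters.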

Additional observations from a re-analysis of the deposited data

How the results depend on the processing

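Over 522 values of single factors under alternatives, 483 kept their direction and side of the threshold. Another 23 were newly called, 7 lost a call and 11 changed sign, 9 of these without crossing the threshold. The other sign changes were Tfap2c in EPSC against ESC without EPSC replicate 2, which gained a call, and Cited2 in Hybrid against NSC, which lost its call under sum scaling and kept it under the other alternatives. Between the pluripotent lines, Cited2 in both comparisons with ESC and Tead4 in EPSC against ESC and in Hybrid against EPSC kept their call under each alternative.

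With no filter on low values, 4 factors were called in EPSC against ESC, 5 in Hybrid against ESC and 8 in ESC against NSC, because Hand1 and Tfap2a and, against NSC, also Elf5 entered the test (45.4%, 50.5% and 67.7% of all genes were called there). It also called 8 in Hybrid against NSC, with Cdx2 and Tfap2a added, and 7 in EPSC against NSC, with Tfap2a added (69.4% and 68.6% of all genes). With a mean over 3 FPKM, 3 were called in each comparison with NSC, which were all that were tested. Over all genes, 87.2% were called there in Hybrid, 86.8% in EPSC and 85.6% in ESC. With fold thresholds of 2, the fold criterion took 2 factors in EPSC against ESC, and no share over all genes is given for these thresholds. Leaving out each library in turn moved the number of called factors in each comparison, and the share of all genes called moved as well. Such fits leave 1 library in a group, so their counts carry no weight.

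Replicate numbers were not shown to pair the libraries, since same-numbered deviations correlated at -0.112 to 0.28 over only 2 numbers. With a replicate block, 4 factors were called in EPSC against ESC, Gata3 and Ascl2 being added, where 62.3% of all genes were called. Gata3 was also newly called in Hybrid against ESC with the block (limma adjusted p = 0.0243, against 0.0589 without it).

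Sum scaling gave -0.0039 for Cited2 in Hybrid against NSC, and quantile normalization gave -0.058 for Gata3 in Hybrid against EPSC (limma adjusted p = 0.884). Quantile normalization also removed the calls of Gata3 (0.60, limma adjusted p = 0.0646, over all alternatives 0.000387 to 0.0646) and Ascl2 (0.35, limma adjusted p = 0.0777, over all alternatives 0.000184 to 0.0777) in Hybrid against NSC, and the cause was not tested. Leaving out each library in turn moved across 0 the differences of Tfap2c in EPSC against ESC (-0.29 to 0.29), of Gata2 in Hybrid against ESC (-0.14 to 0.45) and, in Hybrid against EPSC, of Gata3 (-0.33 to 0.41), Tfap2c (-0.41 to 0.17), Gata2 (-0.57 to 0.019) and Ascl2 (-0.27 to 0.052).

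With 2 libraries a group, differences of factors under 2 FPKM rest on few fragments, and Elf5 cannot be ranked at this depth. No test separated line, strain, medium and feeder content.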
